A study of Mus musculus with 20 samples.

Results

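The transcripts described here encode 7 chemokines (Cxcl1, Cxcl2, Cxcl9, Cxcl10, Ccl2, Ccl4 and Ccl5) and 3 endothelial adhesion molecules (Icam1, Vcam1 and Sele), measured in mouse liver after dosing with CMP013. They were selected as all probe sets, the groups of short oligonucleotides that report a transcript on the array, whose annotated gene symbol is exactly 1 of these 10 names. This gave 15 of the 45037 probe sets and 10 of the 18193 gene symbols on the array. CMP013 is an inhibitor of BACE1, the protease that makes the first cut in the release of amyloid beta peptide, and the study asked which of its liver effects depend on PXR, the pregnane X receptor that turns on drug metabolism genes. There were 4 groups of 5 male mice, aged 9 weeks when dosing began: PXR-KO mice (PXR-/-) given CMP013, PXR-KO mice given vehicle, WT mice (PXR+/+) given CMP013 and WT mice given vehicle. CMP013 was given by oral gavage at 150 mg/kg once a day, the vehicle was the aqueous carrier alone, and livers were collected at 96 h and hybridized 1 animal per array. The knockout mice are of the C57BL/6NTac background in the study's methods and the WT mice are C57BL/6, so the deletion and the background cannot be told apart. RNA integrity numbers in the labels were 8.7 to 9.6 for PXR-/- and 9.3 to 10 for PXR+/+ livers.

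Chemokines are small secreted proteins that bind receptors on leukocytes and direct them toward their source. Cxcl1 and Cxcl2 act on neutrophils through Cxcr2, Cxcl9 and Cxcl10 on activated T and NK cells through Cxcr3, Ccl2 on monocytes through Ccr2, and Ccl4 and Ccl5 on several kinds of leukocyte. Sele (E-selectin) slows leukocytes on activated endothelium, and Icam1 and Vcam1 then hold them by binding leukocyte integrins. Many of these genes are switched on by the transcription factor NFkB, and Cxcl9 and Cxcl10 also by interferons.

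Each value below gives 1 animal's signal on a log2 scale relative to the vehicle reference of that genotype, so 1 is a signal 2-fold above that reference. The reference is described in the study's methods as the mean of the 5 vehicle animals, but it was no plain average, against which the vehicle animals could not have a mean log ratio above 0: that mean was above 0 for 32.5% of probe sets in PXR-KO and 29.7% in WT mice. Among the 10 genes it lay between -0.11 and 0.03 in PXR-KO mice, except for Ccl5 at 0.60, and between -0.18 and 0.02 in WT mice. How the reference was weighted is unknown here. Treated and vehicle animals of a genotype share it, so it cancels in every CMP013 against vehicle change. Ratios carry no levels: which of these transcripts was the most abundant, whether a probe set was above background, the signal of the deleted gene, whether the tissue's own markers were present, and PXR-KO against WT livers under vehicle were not analysed here. Since whole liver was profiled, more cells of a type and more RNA per cell cannot be told apart. Array medians lay between -0.03 and 0.01. Over all probe sets, 4 of the 10 vehicle animals stood apart on the second principal component, PXR-KO vehicle replicates 2 and 4 and WT vehicle replicates 3 and 4, with scores of 49.2 to 73.3 against -8.23 to 15.6 in the other vehicle animals. For the 10 genes, results that change without these 4 animals are given with and without them. Some calls of other genes were also lost without them, as given at the close. No source says whether mice shared a cage or litter, so p-values measure the spread between these animals.

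Promoter sequence from 250 bases before to 50 after the transcription start was held for 6 of the 10 genes in the RefSeq table used here (build GRCm38.p6), and 5 are shown. They are those of the 4 CXC chemokines, of which Cxcl9 alone passed in neither genotype, and of Icam1, the adhesion molecule that rose in both genotypes. Capitals mark every match to GGGNNNNNCC or GAAANNGAAA, searched on both strands, with overlapping matches merged into 1 run. The first is a simplified search pattern for kappaB sites, which NFkB binds, and the second an interferon response element core. Sites that differ from these letters stay in lower case, so a capital run need not be the kappaB site of its gene. Of 32851 promoters of this length, 50.8% hold a GGGNNNNNCC match and 3.44% a GAAANNGAAA match, so a GGGNNNNNCC match sets no promoter apart. Each sequence runs 5′ to 3′ on the strand of its gene.
Cxcl1, chr5:90890995-90891294, plus strand: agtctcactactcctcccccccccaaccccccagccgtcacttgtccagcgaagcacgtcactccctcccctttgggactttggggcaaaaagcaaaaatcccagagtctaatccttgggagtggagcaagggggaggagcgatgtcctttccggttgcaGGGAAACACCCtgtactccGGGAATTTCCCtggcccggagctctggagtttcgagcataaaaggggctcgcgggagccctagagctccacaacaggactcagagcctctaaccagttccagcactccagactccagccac
Cxcl2, chr5:90903649-90903948, plus strand: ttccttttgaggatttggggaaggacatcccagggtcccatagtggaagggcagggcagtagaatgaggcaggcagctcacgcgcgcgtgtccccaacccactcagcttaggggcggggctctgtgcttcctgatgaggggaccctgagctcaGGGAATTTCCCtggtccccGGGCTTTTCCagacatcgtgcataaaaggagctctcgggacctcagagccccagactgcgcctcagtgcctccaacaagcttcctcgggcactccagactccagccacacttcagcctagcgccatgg
Cxcl10, chr5:92348840-92349139, minus strand: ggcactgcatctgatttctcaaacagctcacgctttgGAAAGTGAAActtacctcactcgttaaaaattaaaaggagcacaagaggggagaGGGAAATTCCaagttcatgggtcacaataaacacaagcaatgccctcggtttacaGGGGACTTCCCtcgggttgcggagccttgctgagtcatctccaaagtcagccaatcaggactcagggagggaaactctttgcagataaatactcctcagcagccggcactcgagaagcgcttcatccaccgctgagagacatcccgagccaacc
Cxcl9, chr5:92328030-92328329, minus strand: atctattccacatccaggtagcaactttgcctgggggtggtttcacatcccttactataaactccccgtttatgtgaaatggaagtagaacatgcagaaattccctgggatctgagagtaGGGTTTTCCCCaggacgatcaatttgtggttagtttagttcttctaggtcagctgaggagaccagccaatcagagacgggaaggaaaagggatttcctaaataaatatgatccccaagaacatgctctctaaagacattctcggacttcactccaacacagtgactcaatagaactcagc
Icam1, chr9:21015690-21015989, plus strand: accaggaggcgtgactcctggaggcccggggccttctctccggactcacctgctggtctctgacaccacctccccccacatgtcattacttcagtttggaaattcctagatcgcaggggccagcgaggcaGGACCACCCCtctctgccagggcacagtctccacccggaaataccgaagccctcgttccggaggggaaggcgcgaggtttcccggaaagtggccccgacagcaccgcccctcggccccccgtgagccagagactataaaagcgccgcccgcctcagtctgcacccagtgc
The Cxcl1 and Cxcl2 promoters share the run GGGAATTTCCC, which starts 71 bases before the start of Cxcl1 and 97 before that of Cxcl2. Of the 5 promoters shown, that of Cxcl10 alone holds a GAAANNGAAA match, GAAAGTGAAA, 213 bases before its start. These are matches of letters in a window, not sites shown to be bound. Other forms of interferon element were not searched, so a promoter without this match, such as that of Cxcl9, may still hold one. Cxcl1 and Cxcl2 are neighbours on chromosome 5, which also carries Cxcl9 and Cxcl10. Ccl2, Ccl4 and Ccl5 lie on chromosome 11, and Sele, Vcam1 and Icam1 on chromosomes 1, 3 and 9.

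With CMP013, 5 of the 10 genes rose in PXR-KO livers, Cxcl1, Cxcl2, Cxcl10, Icam1 and Vcam1, and 0 fell (limma, adjusted p under 0.05 over all probe sets, with 6 higher and 1 lower at an unadjusted p under 0.05). Across all probe sets of the PXR-KO comparison 2.12% were called higher and 1.54% lower. In WT livers 4 of the 10 rose, Cxcl1, Cxcl10, Ccl2 and Icam1, and 0 fell (6 higher and 0 lower unadjusted), where 7.67% of all probe sets were called higher and 6.72% lower. The median log2 fold change of the 10 genes was 0.94 in PXR-KO and 0.59 in WT mice, with medians over all probe sets of 0.01 and -0.01. By single probe sets, 7 of 15 were higher in each genotype. The PXR-KO count changed with the variance model. With trended and robust variances 0 of the 10 passed there (adjusted p = 0.0536 to 0.0707 for the 5, 7 genes at an unadjusted p under 0.05). Of all 45037 probe sets 0 passed too (8806 unadjusted). The trend was fitted on the mean log ratio, as no signal levels were used, and that mean holds part of the change tested. This fit therefore cannot tell weak calls from an unsuited trend. The WT count was 1, Cxcl10, after quantile normalization of the ratios. That step gives every array the same distribution, although treated arrays were wider (SD 0.47 to 0.70) than vehicle arrays (SD 0.33 to 0.46). It thus narrows treated and widens vehicle ratios, so some loss of calls is built into it. The PXR-KO and WT responses differed for 1 of the 10 genes, Vcam1, with a larger change in PXR-KO mice, where 5.49% of all probe sets had a higher and 5.47% a lower change in PXR-KO than in WT mice.

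**Figure D1:**
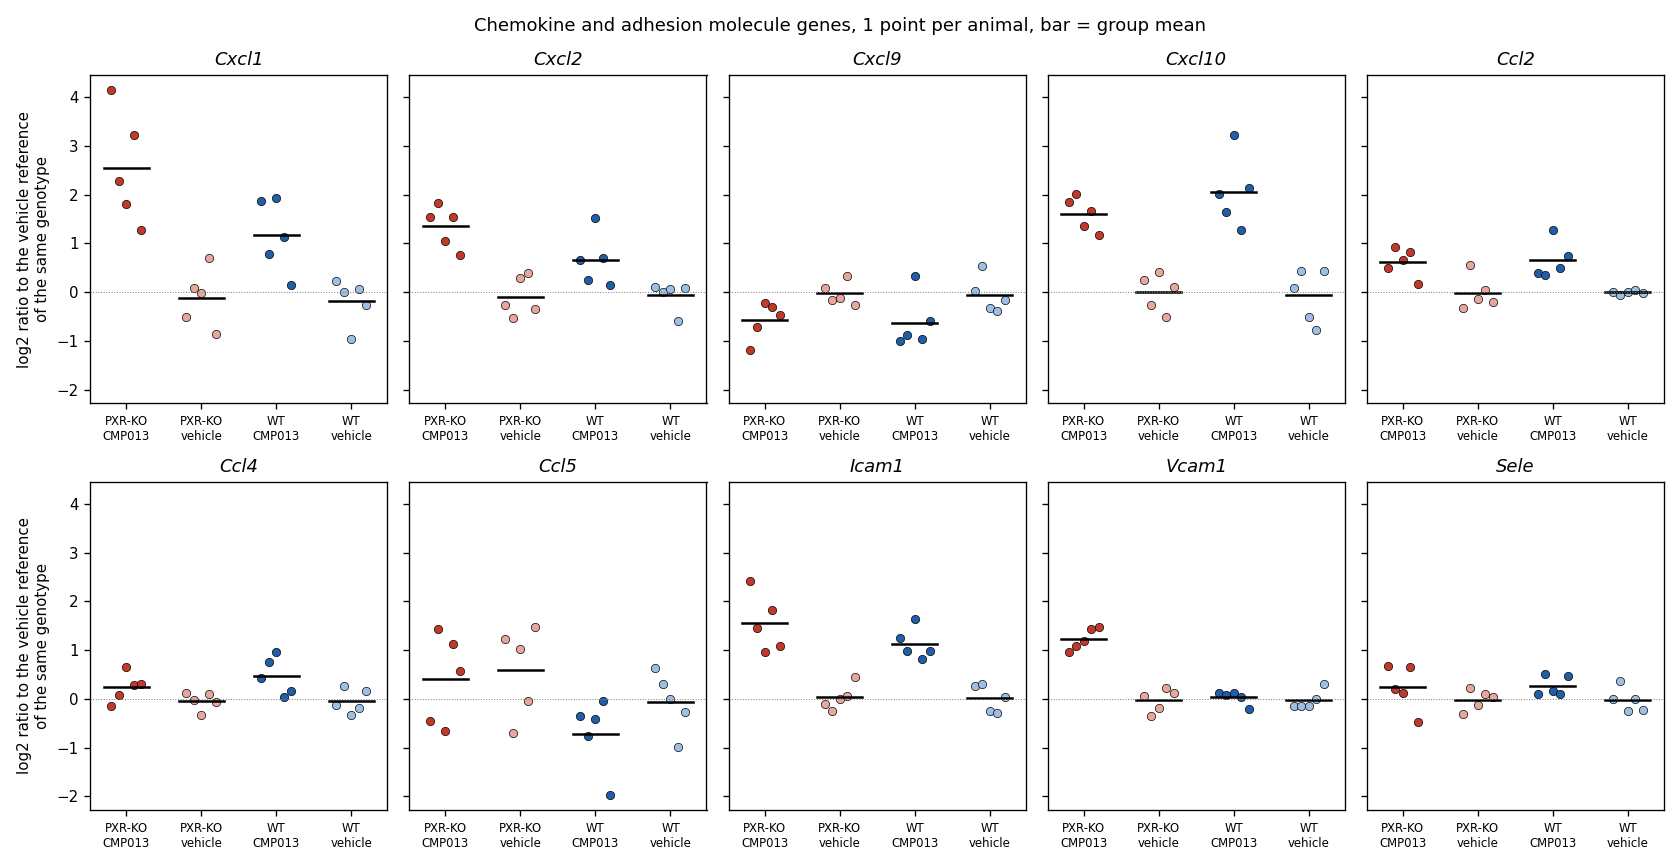
Each panel is 1 gene and each point 1 animal, with the log2 ratio to the vehicle reference of its own genotype on the y axis; bars are group means of 5 animals and the groups run from PXR-KO CMP013 to WT vehicle. Cxcl10 and Icam1 points of both CMP013 groups lie above all vehicle points of their genotype, while the Vcam1 points do so in PXR-KO mice alone.

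Of the neutrophil chemokines, Cxcl1 had the largest response of the 10 genes in PXR-KO mice. Its ratios were 4.15, 2.27, 1.81, 3.22 and 1.28 in PXR-KO CMP013 livers, against -0.51, 0.10, -0.01, 0.70 and -0.85 in PXR-KO vehicle livers. In WT mice they were 1.87, 0.79, 1.94, 1.14 and 0.16 with CMP013 and 0.23, 0.01, -0.95, 0.07 and -0.27 with vehicle. The PXR-KO groups did not overlap, although their treated animals spanned a wide range, and the WT groups met where CMP013 replicate 5 fell below the highest vehicle animal. Cxcl1 was 6.32-fold higher in PXR-KO mice (log2 2.66 ± 0.52 SE, adjusted p = 0.0242) and 2.57-fold higher in WT mice (log2 1.36 ± 0.36, adjusted p = 0.0308). Both calls lie close to the threshold: each was lost in 6 of 10 fits that left out 1 animal, in PXR-KO mice without vehicle replicate 1, 2, 3 or 5 or CMP013 replicate 2 or 4 (log2 2.48 to 2.73, adjusted p = 0.0513 to 0.0692), and in WT mice without vehicle replicate 2, 3 or 5 or CMP013 replicate 1, 3 or 4 (log2 1.17 to 1.41, adjusted p = 0.0509 to 0.0678). Neither passed without the 4 vehicle animals that stand apart, at 3.0 in PXR-KO mice (adjusted p = 0.0730) and 1.19 in WT mice (adjusted p = 0.120). Leaving them out takes 2 of the 5 vehicle animals from each genotype, so such fits hold fewer arrays.

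Cxcl1 is also read by a pair of probe sets marked as able to bind related sequences. Probe set 1441855_x_at gave log2 1.41 in PXR-KO mice (adjusted p = 0.0888) and 0.95 in WT mice (adjusted p = 0.0067), and 1457644_s_at gave 1.81 (adjusted p = 0.0580) and 1.01 (adjusted p = 0.0147) in the same comparisons. All 3 probe sets were higher with CMP013 in both genotypes. For the 2 marked ones the WT change alone passed, although the PXR-KO change was larger, and the treated PXR-KO animals were the more spread out (SD 0.92 and 1.03, against 0.33 and 0.49 in treated WT animals).

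Cxcl2, the neighbour of Cxcl1 with the same receptor, rose in PXR-KO mice. Its ratios were 1.55, 1.84, 1.05, 1.54 and 0.77 in PXR-KO CMP013 livers, against -0.27, -0.54, 0.28, 0.39 and -0.34 in PXR-KO vehicle livers. WT ratios were 0.67, 0.26, 1.52, 0.70 and 0.15 with CMP013 and 0.11, 0.01, 0.07, -0.59 and 0.08 with vehicle. Neither pair of groups overlapped, but in WT mice the lowest CMP013 and the highest vehicle animal nearly touched. The change was 2.72-fold in PXR-KO mice (log2 1.44 ± 0.24, adjusted p = 0.0142) and 1.65-fold in WT mice, where it did not pass (log2 0.72 ± 0.25, adjusted p = 0.0902). With the 4 vehicle animals named earlier left out, the PXR-KO change of 1.46 did not pass (adjusted p = 0.0548). The difference between genotypes, 0.72 on the log2 scale with a 95% interval of -0.05 to 1.49, did not pass either (adjusted p = 0.232), so a larger Cxcl2 response in PXR-KO mice is not shown.

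Cxcl10, which attracts activated T and NK cells, rose in both genotypes and had the largest response of the 10 genes in WT mice. Its ratios were 1.86, 2.01, 1.35, 1.66 and 1.17 in PXR-KO CMP013 livers, against 0.25, -0.26, 0.41, -0.51 and 0.11 in PXR-KO vehicle livers. WT ratios were 2.02, 1.64, 3.22, 1.28 and 2.13 with CMP013 and 0.09, 0.43, -0.51, -0.78 and 0.44 with vehicle. Treated and vehicle animals were separated by a clear gap in each genotype, and 5 of 5 treated animals of each passed 1.25-fold, the fold the study used to count an animal as changed. Cxcl10 was 3.05-fold higher in PXR-KO mice (log2 1.61 ± 0.21, adjusted p = 0.0053) and 4.36-fold higher in WT mice (log2 2.12 ± 0.37, adjusted p = 0.0045).

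Cxcl9, the other Cxcr3 ligand of the set, did not pass in either genotype and had values on the other side of 0. Its ratios were -1.19, -0.71, -0.23, -0.30 and -0.47 in PXR-KO CMP013 livers, against 0.09, -0.16, -0.12, 0.34 and -0.26 in PXR-KO vehicle livers. In WT mice they were -1.0, -0.89, 0.32, -0.96 and -0.59 with CMP013 and 0.03, 0.54, -0.33, -0.38 and -0.16 with vehicle. Most treated animals lay below 0, yet the groups overlapped in both genotypes. The log2 change was -0.56 ± 0.19 in PXR-KO mice (adjusted p = 0.143) and -0.56 ± 0.27 in WT mice (adjusted p = 0.216), and neither passed. WT CMP013 replicate 3, the treated animal above 0 and the one with the highest Cxcl10 ratio of its group, decided the WT result: without it the change was -0.80 and passed (adjusted p = 0.0300). A second probe set for Cxcl9, 1456907_at, gave smaller changes of -0.26 in PXR-KO and -0.09 in WT mice.

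Among the CC chemokines, Ccl2, which draws monocytes out of the blood, had similar changes in both genotypes and passed in WT mice alone. Its ratios were 0.50, 0.92, 0.66, 0.82 and 0.16 in PXR-KO CMP013 livers, against -0.33, 0.56, -0.14, 0.05 and -0.21 in PXR-KO vehicle livers. WT ratios were 0.40, 0.34, 1.28, 0.49 and 0.74 with CMP013 and 0.00, -0.06, 0.01, 0.05 and -0.03 with vehicle. The PXR-KO groups overlapped through vehicle replicate 2, and the WT groups did not overlap. The change was 1.54-fold in PXR-KO mice (log2 0.63 ± 0.19, adjusted p = 0.107) and 1.58-fold in WT mice (log2 0.66 ± 0.17, adjusted p = 0.0270). The WT call was lost without any single WT vehicle animal or WT CMP013 replicate 5 (log2 0.63 to 0.67, adjusted p = 0.0505 to 0.0578), and without the 4 vehicle animals that stand apart (log2 0.68, adjusted p = 0.100).

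Ccl4 and Ccl5 did not pass in either genotype. Ccl4 ratios ran from -0.14 to 0.65 in PXR-KO CMP013 livers and from -0.32 to 0.13 in PXR-KO vehicle livers, and from 0.05 to 0.97 in WT CMP013 livers and from -0.33 to 0.27 in WT vehicle livers. Its log2 change was 0.27 ± 0.15 in PXR-KO mice (adjusted p = 0.347) and 0.51 ± 0.20 in WT mice (adjusted p = 0.115). Ccl5 was the noisiest of the set, with a vehicle SD higher than that of 94.0% of all probe sets. Its ratios were -0.44, 1.44, -0.66, 1.12 and 0.57 in PXR-KO CMP013 livers, against 1.23, -0.71, 1.03, -0.04 and 1.47 in PXR-KO vehicle livers, and ran from -1.97 to -0.04 in WT CMP013 livers and from -0.99 to 0.63 in WT vehicle livers. The treated and vehicle animals were mixed in both genotypes. The 95% intervals of its log2 change, -1.36 to 0.97 in PXR-KO and -1.52 to 0.23 in WT mice, leave room for changes of more than 2-fold.

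**Figure D2:**
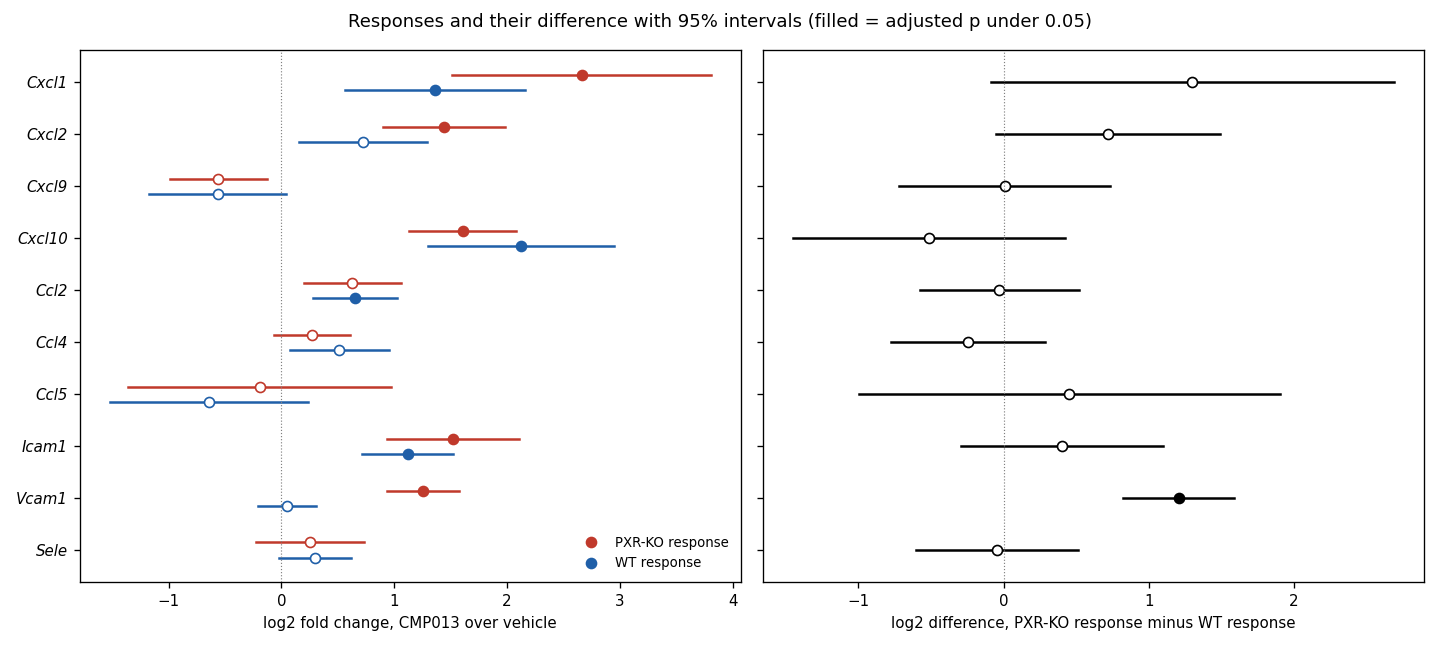
The left panel gives the log2 fold change of CMP013 over vehicle for each gene with its 95% interval, PXR-KO above WT, and the right panel the PXR-KO response minus the WT response; filled points have an adjusted p under 0.05 in limma. The Vcam1 difference, 1.20 with an interval of 0.82 to 1.59, is the filled one on the right, and the intervals of the other 9 genes include 0.

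Of the adhesion molecules, Icam1, the ligand of the beta2 integrins of leukocytes, rose in both genotypes. Its ratios were 2.41, 1.46, 0.97, 1.83 and 1.09 in PXR-KO CMP013 livers, against -0.10, -0.26, -0.01, 0.07 and 0.45 in PXR-KO vehicle livers. In WT mice they were 1.25, 0.98, 1.64, 0.82 and 0.99 with CMP013 and 0.27, 0.32, -0.25, -0.29 and 0.05 with vehicle. Every treated animal was above every vehicle animal of its genotype. Icam1 was 2.87-fold higher in PXR-KO mice (log2 1.52 ± 0.26, adjusted p = 0.0152) and 2.17-fold higher in WT mice (log2 1.12 ± 0.18, adjusted p = 0.0031). With the 4 vehicle animals named earlier left out, the PXR-KO change was 1.44 and no longer passed (adjusted p = 0.0997), and the WT change was 0.93 and passed (adjusted p = 0.0282).

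Vcam1, which binds the alpha4 integrins of monocytes and lymphocytes, rose in PXR-KO mice, and its response was the one that differed between genotypes. By its main probe set (1415989_at) the ratios were 0.96, 1.08, 1.19, 1.43 and 1.48 in PXR-KO CMP013 livers, against 0.05, -0.35, -0.18, 0.22 and 0.12 in PXR-KO vehicle livers. In WT mice they were 0.11, 0.07, 0.13, 0.05 and -0.21 with CMP013 and -0.14, -0.14, -0.14, 0.01 and 0.31 with vehicle. The treated PXR-KO animals formed a tight group well above all others, and the WT groups lay on top of each other. Vcam1 was 2.39-fold higher in PXR-KO mice (log2 1.26 ± 0.14, adjusted p = 0.0032), its WT change was 0.05 ± 0.12 (adjusted p = 0.831), and the difference of 1.20 ± 0.18 passed (adjusted p = 0.000323). The difference passed in all 20 fits that left out 1 animal (log2 1.12 to 1.27).

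The other probe sets of Vcam1 gave the same direction of difference but disagreed on the WT change. For 1448162_at the ratios were 1.52, 1.66, 1.62, 2.09 and 2.02 in PXR-KO CMP013 livers, against -0.28, -0.34, -0.35, 0.72 and 0.31 in PXR-KO vehicle livers, and both WT groups lay between -0.25 and 0.29. For 1451314_a_at they were 1.25, 1.40, 1.41, 1.71 and 1.55 in PXR-KO CMP013 livers, against -0.24, 0.39, -0.34, 0.07 and 0.23 in PXR-KO vehicle livers. This probe set read 0.32, 0.65, 0.75, 0.41 and 0.45 in WT CMP013 livers, against -0.06, 0.09, 0.04, 0.34 and -0.15 in WT vehicle livers. Here the WT groups overlapped only at 0.32 and 0.34, and the WT change of 0.47 passed (adjusted p = 0.0300), while that of 1448162_at, -0.06, did not (adjusted p = 0.802). The PXR-KO response exceeded the WT response by 1.83 for 1448162_at (adjusted p = 0.000189) and by 0.98 for 1451314_a_at (adjusted p = 0.0033). Which transcripts of Vcam1 each probe set reads was not analysed here.

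**Figure D3:**
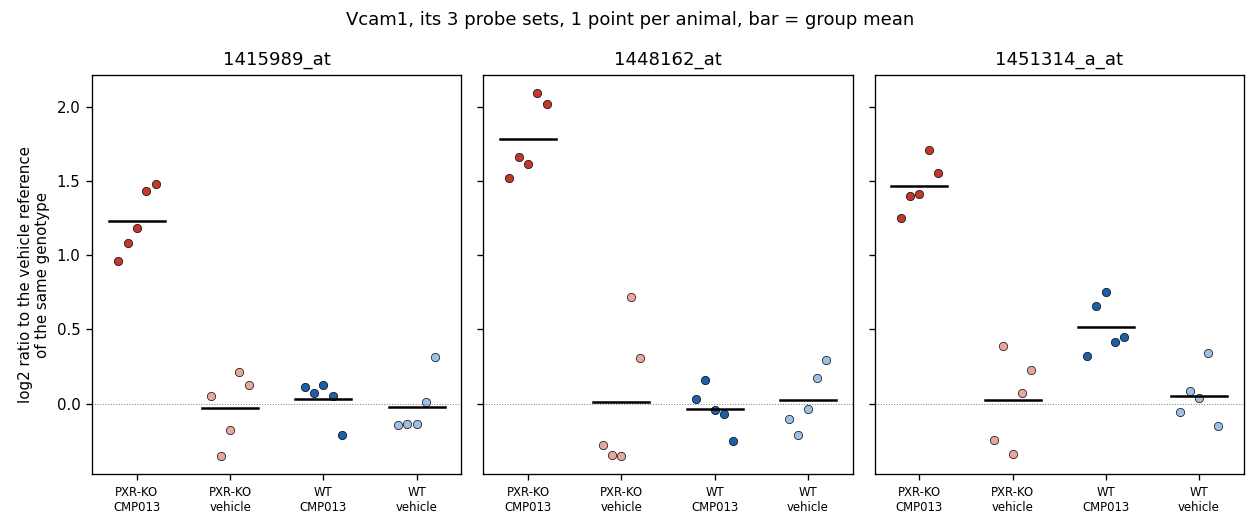
Each panel is 1 of the 3 probe sets of Vcam1 and each point 1 animal, with the log2 ratio to the vehicle reference of its genotype on the y axis and bars at the mean of 5 animals. In all 3 the PXR-KO CMP013 animals (0.96 to 2.09) lie above the other groups, and the WT CMP013 animals lie above 0 as a group for 1451314_a_at alone.

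Sele did not pass in either genotype. Its ratios were 0.68, 0.20, 0.13, 0.66 and -0.48 in PXR-KO CMP013 livers, against -0.31, 0.22, -0.13, 0.09 and 0.04 in PXR-KO vehicle livers. WT ratios were 0.11, 0.52, 0.17, 0.11 and 0.47 with CMP013 and -0.01, 0.38, -0.25, 0.00 and -0.23 with vehicle. The log2 change was 0.25 ± 0.22 in PXR-KO mice (adjusted p = 0.552) and 0.30 ± 0.14 in WT mice (adjusted p = 0.219), with overlapping groups in both.

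In PXR-KO mice 5 of the 10 genes had treated and vehicle groups that did not overlap, all with the treated group higher, beside 4.07% of all probe sets. In WT mice 4 did, beside 7.78%. The PXR-KO set was the 5 genes that passed the test there, whereas the WT set held Cxcl2, which did not pass, and left out Cxcl1, which did. For the 9 genes other than Vcam1 the difference between the PXR-KO and WT responses did not pass, and its intervals were wide: -0.09 to 2.69 for Cxcl1 (difference 1.30, adjusted p = 0.230), -1.45 to 0.42 for Cxcl10 (-0.51, adjusted p = 0.512), -0.29 to 1.10 for Icam1 (0.40, adjusted p = 0.486) and -0.58 to 0.52 for Ccl2 (-0.03, adjusted p = 0.962). These intervals do not show that the genotypes responded alike.

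The genes also differed in how they varied among animals of the same group. After the group means were removed, the highest Pearson correlations across 20 animals were 0.72 for Cxcl9 with Ccl4, 0.68 for Cxcl1 with Icam1, 0.62 for Cxcl10 with Icam1, 0.58 for Cxcl2 with Cxcl10 and 0.57 for Cxcl1 with Cxcl2. Some pairs lay near 0, such as Cxcl1 with Cxcl9 (0.01) and Icam1 with Vcam1 (-0.03). The lowest of all pairs was -0.41, for Vcam1 with Sele. These values are descriptions of the same 20 arrays, which share their normalization. With group differences kept in, the probe sets most like each gene across 20 arrays included a probe set of the NFkB cofactor Nfkbiz for Cxcl1 (r = 0.92), Cxcl1 itself for Cxcl2 (r = 0.87), and the toll-like receptor Tlr2 (r = 0.94) and the calcium-binding protein S100a8 (r = 0.93) for Icam1. Cxcl9 went with the antigen presentation genes H2-Aa, Cd74 and H2-Ab1 (r = 0.88, 0.84 and 0.82), Cxcl10 with the crosslinking enzyme Tgm2 (r = 0.91), and Vcam1 with the kinase Ripk4 (r = 0.94) and the secreted peroxidase Gpx3 (r = 0.92). For Ccl2 the closest was the keratin Krt8 (r = 0.88), for Ccl4 the actin-bundling protein Lcp1 (r = 0.87), for Ccl5 Fbxo38 (r = 0.87) and for Sele Aen (r = 0.84). They are the highest of all the probe sets that name 1 gene and were picked for being so.

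The other chemokines on the array, and the receptors and integrins after them, are set beside the shares of all probe sets called. These were 2.12% higher and 1.54% lower in PXR-KO and 7.67% higher and 6.72% lower in WT mice. Of 11 further CXC and CX3C chemokines 0 passed in PXR-KO mice by limma (3 at an unadjusted p under 0.05), and in WT mice 1 fell, Cxcl13, the B cell chemokine (log2 -0.92 ± 0.20, adjusted p = 0.0119). Their median change was -0.07 in PXR-KO and 0.17 in WT mice. Of 16 measured CC and XC chemokines 2 rose in PXR-KO mice, Ccl6 and Ccl3, and in WT mice 1 rose, Ccl9, and 1 fell, Ccl27a (log2 -0.63, adjusted p = 0.0052), with medians of -0.04 in PXR-KO and 0.09 in WT mice. Ccl6 and Ccl9 are related rodent chemokines that act through Ccr1, and each rose in the genotype where the other did not. The log2 change of Ccl6 was 1.92 ± 0.27 in PXR-KO mice (adjusted p = 0.0069) and -0.20 ± 0.10 in WT mice (adjusted p = 0.246), and that of Ccl9 was 0.17 ± 0.09 in PXR-KO mice (adjusted p = 0.293) and 1.54 ± 0.08 in WT mice (adjusted p = 7.83e-06). The responses differed for both, by 2.12 for Ccl6 (adjusted p = 0.000183) and by -1.37 for Ccl9 (adjusted p = 4.18e-07). The Ccl3 change in PXR-KO mice, 0.75, was at the threshold (adjusted p = 0.0434), and it was lost in 10 of 10 fits that left out 1 animal (adjusted p = 0.0511 to 0.0981).

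On the receiving side, 1 of 21 chemokine receptors rose in PXR-KO mice, the chemerin-binding receptor Ccrl2 (log2 0.94 ± 0.13, adjusted p = 0.0066), and 2 fell, the scavenging receptors Ackr1 (-0.59, adjusted p = 0.0319) and Ackr2 (-0.50, adjusted p = 0.0365), whose calls were lost in 8 and 9 of 10 fits with 1 animal left out (adjusted p up to 0.0821 and 0.0893). In WT mice 0 of 21 passed by limma (1 at an unadjusted p under 0.05), and the median of the 21 was -0.13 in each genotype. Cxcr2, the receptor of Cxcl1 and Cxcl2, had log2 changes of 1.35 ± 0.49 in PXR-KO mice (adjusted p = 0.163) and -0.92 ± 0.41 in WT mice (adjusted p = 0.178), neither past the threshold, and their difference of 2.27 did pass (adjusted p = 0.0367) but was lost in 12 of 20 fits with 1 animal left out (adjusted p up to 0.0682). Its vehicle animals were widely spread, with a mean ratio of 0.62 (SD 1.08) in PXR-KO and -0.51 (SD 0.76) in WT mice. The receptors Cxcr3 and Ccr2, named here for their ligands, changed by -0.15 and -0.19 in PXR-KO and by -0.13 and -0.44 in WT mice without passing. Of 11 leukocyte integrins and selectin ligands (median 0.03 in PXR-KO and -0.05 in WT mice), 2 rose in PXR-KO and 0 passed in WT mice (1 unadjusted). Itgb2, the beta2 chain that pairs to bind Icam1, changed by 0.88 ± 0.16 in PXR-KO mice (adjusted p = 0.0181) and did not pass in WT mice (-0.04, adjusted p = 0.905), with a difference of 0.93 (adjusted p = 0.0166). The alpha4 chain Itga4, the partner of Vcam1, changed by -0.16 in PXR-KO mice (adjusted p = 0.528) and -0.03 in WT mice (adjusted p = 0.905).

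A minority of the other endothelial adhesion molecules differed between genotypes in the same direction as Vcam1. Of 14, the PXR-KO response exceeded the WT response for 4, F11r, Alcam, Esam and Cd99, and was below it for 0 (1 at an unadjusted p under 0.05), beside 5.49% and 5.47% of all probe sets. The junction protein F11r rose in PXR-KO mice (log2 0.71 ± 0.11, adjusted p = 0.0099) with a WT change of 0.01 and a difference of 0.71 (adjusted p = 0.0016), which was 0.31 and did not pass as the mean over its probe sets (adjusted p = 0.111). Esam fell in WT mice (-0.55 ± 0.10, adjusted p = 0.0057) with a PXR-KO change of -0.02 and a difference of 0.53 (adjusted p = 0.0067), so these 2 differences were made on opposite sides. Alcam differed by 0.94 (adjusted p = 0.000551) and Cd99 by 0.76 (adjusted p = 0.0079). The median difference over the 14 was -0.02, and Selp, the selectin closest to Sele in function, was among those that did not pass (-0.31 in PXR-KO, -0.16 in WT mice).

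The usual inducers of these genes mostly did not pass at 96 h. Tnf changed by 0.27 in PXR-KO and 0.04 in WT mice, Il1b by 0.48 in PXR-KO and 0.07 in WT mice, and Ifng by -0.11 in PXR-KO and -0.12 in WT mice, and the lowest adjusted p of these was 0.0786. Of 18 cytokines and receptors (median 0.05 in PXR-KO and -0.06 in WT mice) 1 rose in PXR-KO mice, Il1a (0.94 ± 0.18, adjusted p = 0.0222), and 1 rose and 3 fell in WT mice. The one that rose in WT mice was Csf1 (1.02, adjusted p = 0.0019), with -0.14 in PXR-KO mice by its main probe set (adjusted p = 0.679). As the mean over its probe sets Csf1 passed as higher in PXR-KO mice too (0.67, adjusted p = 0.0147). The Il1a change was a call lost in 4 of 10 fits with 1 animal left out (adjusted p up to 0.0652). Of 14 NFkB subunits and feedback targets (median 0.23 in PXR-KO and 0.01 in WT mice) 1 rose in PXR-KO mice and 2 rose and 3 fell in WT mice. Beside both lists, 2.12% of all probe sets were called higher and 1.54% lower in PXR-KO mice, and 7.67% and 6.72% in WT mice. Nfkbiz rose in both genotypes, by 1.23 ± 0.13 in PXR-KO mice (adjusted p = 0.0025) and by 0.56 ± 0.10 in WT mice (adjusted p = 0.0061), with a difference of 0.67 (adjusted p = 0.0123). Nfkbia, the inhibitor that NFkB induces to end its own activity, did not pass in PXR-KO mice (0.05, adjusted p = 0.856) and fell in WT mice (-0.98 ± 0.13, adjusted p = 0.0010). Cebpd likewise had 0.48 in PXR-KO mice (adjusted p = 0.133) and fell in WT mice (-0.92 ± 0.16, adjusted p = 0.0040).

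Of 14 interferon targets, the PXR-KO response was above the WT response for 1 and below it for 5, beside 5.49% and 5.47% of all probe sets. In this list 1 rose and 1 fell in PXR-KO mice, Irf8 (0.49, adjusted p = 0.0392) and Psmb9 (-0.67, adjusted p = 0.0355), whereas 6 rose and 0 fell in WT mice (8 higher and 0 lower unadjusted), where 7.67% of all probe sets were called higher. Their median change was 0.03 in PXR-KO and 0.55 in WT mice. The antiviral gene Ifit1 changed by -0.42 ± 0.14 in PXR-KO mice (adjusted p = 0.123) and rose by 2.06 ± 0.30 in WT mice (adjusted p = 0.0019), a difference of -2.48 (adjusted p = 0.00014). Ifit3 and Irf7 gave differences of -1.93 (adjusted p = 0.0013) and -1.07 (adjusted p = 0.0032). The Cxcl10 difference of -0.51 did not pass, and Cxcl11, the third Cxcr3 ligand, changed by 0.07 in PXR-KO and 0.29 in WT mice without passing. The calls of Irf8 and Psmb9 were lost in 9 and 7 of 10 fits that left out 1 animal (adjusted p up to 0.104 and 0.0967).

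**Figure D4:**
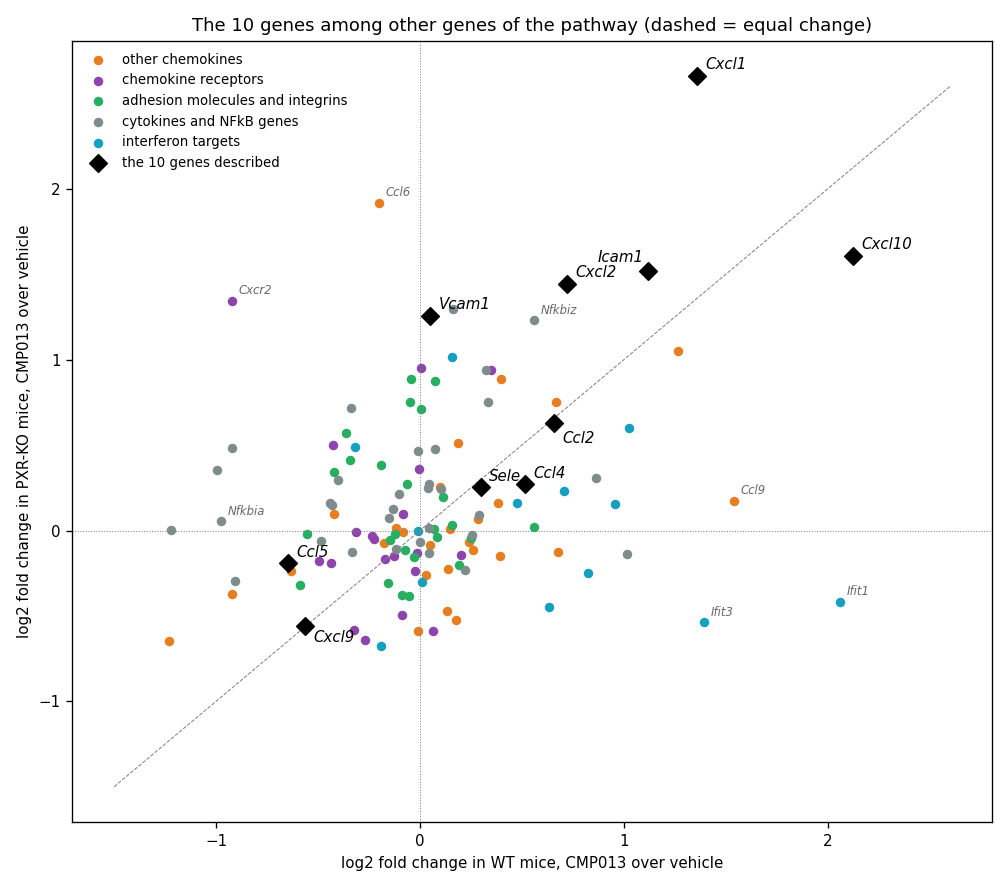
Each point is 1 gene, with the log2 fold change in WT mice on the x axis and in PXR-KO mice on the y axis; black diamonds are the 10 genes described, colours the other lists, and the dashed line marks equal change. Cxcl1, Cxcl2, Icam1 and Cxcl10 lie high on both axes, Vcam1 and Ccl6 on the PXR-KO axis, and Ccl9, Ifit1 and Ifit3 toward WT.

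Marker lists of the cells that could make or answer these signals are given beside them. For these counts, here and in the next paragraph, the shares of all probe sets called are the measure. They were 2.12% higher and 1.54% lower in PXR-KO mice, and 7.67% higher and 6.72% lower in WT mice. Of 9 measured neutrophil markers 1 rose in PXR-KO mice, S100a8 (log2 2.08 ± 0.44, adjusted p = 0.0343, lost in 8 of 10 fits with 1 animal left out, adjusted p up to 0.0934), and 2 rose in WT mice, S100a8 (1.12 ± 0.23, adjusted p = 0.0108) and S100a9 (1.12, adjusted p = 0.0226). The median of the 9 was 0.39 in PXR-KO and 0.29 in WT mice. Over the 9 markers the mean ratio per animal ran from 0.04 to 1.29 in PXR-KO CMP013, -0.18 to 0.25 in PXR-KO vehicle, -0.01 to 0.43 in WT CMP013 and -0.16 to 0.09 in WT vehicle livers. Of 11 monocyte and recruited macrophage markers 4 rose and 0 fell in PXR-KO mice, and 2 rose and 1 fell in WT mice, with medians of 0.34 in PXR-KO and -0.19 in WT mice. Their mean ratio ran from 0.49 to 1.26 in PXR-KO CMP013, -0.26 to 0.25 in PXR-KO vehicle, -0.06 to 0.32 in WT CMP013 and -0.26 to 0.12 in WT vehicle livers, so that the groups did not overlap in PXR-KO mice. In that comparison 6 of the 11 markers had a change above 0, those that passed had log2 changes of 1.11 to 4.75, and the rest lay between -0.32 and 0.40, Ccr2, Adgre1 and Csf1r among those below 0. The lysosomal protein Cd68 rose in PXR-KO mice (1.11 ± 0.13, adjusted p = 0.0038), did not pass in WT mice (0.19, adjusted p = 0.284) and differed by 0.92 (adjusted p = 0.0014).

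Of 10 Kupffer cell markers 1 rose, the scavenger receptor Marco, and 1 fell in PXR-KO mice, and 0 rose and 4 fell in WT mice (0 and 5 unadjusted), with medians of 0.23 in PXR-KO and -0.34 in WT mice. The log2 change of Marco was 4.22 ± 0.64 in PXR-KO mice (adjusted p = 0.0089) and 0.10 ± 0.49 in WT mice (adjusted p = 0.927). Of 9 markers of sinusoidal endothelial cells, which display Icam1 and Vcam1, 1 rose and 1 fell in PXR-KO mice and 0 rose and 6 fell in WT mice (the same 0 and 6 unadjusted), with medians of -0.19 in PXR-KO and -0.33 in WT mice. Their mean ratio ran from -0.14 to 0.05 in PXR-KO CMP013, -0.04 to 0.04 in PXR-KO vehicle, -0.38 to -0.31 in WT CMP013 and -0.13 to 0.12 in WT vehicle livers. Among 11 T and NK cell and 5 B cell markers 0 passed within either genotype by limma, with 3 and 1 past an unadjusted p under 0.05 in PXR-KO mice and 3 and 1 in WT mice. Of 9 stellate cell markers 0 passed in PXR-KO mice (1 unadjusted) and 3 fell in WT mice, of 4 cholangiocyte markers 0 passed (0 unadjusted), and of 7 hepatocyte markers 0 passed in PXR-KO mice (1 unadjusted) and 1 fell in WT mice. Of 7 markers listed for dendritic cells 0 rose and 2 fell in each genotype (1 and 3 unadjusted in PXR-KO, 0 and 2 in WT mice), with medians of -0.24 in PXR-KO and -0.01 in WT mice. The 2 were Cd74 and H2-Ab1, antigen presentation genes that B cells and macrophages use too and that were close to Cxcl9 across arrays. Cd74 fell by 0.93 in PXR-KO mice (adjusted p = 0.0200) and by 1.03 in WT mice (adjusted p = 0.0082). The PXR-KO call of Cd74 was lost in 2 of 10 fits with 1 animal left out (adjusted p up to 0.0565), and that of H2-Ab1 (-1.09, adjusted p = 0.0489) in 10 of 10 (adjusted p = 0.0520 to 0.102). The part of these cell types in the chemokine and adhesion molecule results was not tested.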

How the data were processed

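Liver RNA of 20 mice was hybridized to Affymetrix Mouse430_2 arrays, 1 animal per array. The deposited log10 ratios were made by the authors with Rosetta Resolver, each animal's signal being set against a reference made from its genotype's 5 vehicle animals. The methods call this reference their mean, which the values do not bear out as a plain average, and its weighting is unknown here. The ratios were multiplied by the log2 of 10 for all tests. All 45037 probe sets were kept, since signal, detection calls and platform p-values were not used here, so the number of arrays limits precision. The study counted animals past 1.25-fold (a log10 ratio of 0.097) together with a platform p, and that count was used here as a description only. CMP013 was compared with vehicle on the 10 arrays of each genotype, and the PXR-KO response with the WT response on all 20, by limma (version 3.58.1, R 4.3.3; lmFit, then eBayes; two-sided, Benjamini-Hochberg over 45037 probe sets, adjusted p under 0.05). SE is limma's standard error and intervals are at 95%. The code was run on simulated data with independent normal noise, which does not test how well the model suits these arrays.

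Each gene was represented by 1 probe set annotated to that gene alone. Those free of an _s_ or _x_ mark were preferred, and among them the least variable within the vehicle groups was taken. The 8 pathway lists and 10 marker lists, described by counts and medians with no test over a list, hold other genes of the pathway and markers of liver cell types. Named from each are up to 3 called genes per comparison with the smallest adjusted p, plus Cxcr3, Ccr2, Itga4, Selp, Tnf, Il1b, Ifng, Cxcl11 and S100a9, named for their role after their values were seen. The members and lists were chosen with earlier results of these data known. The 3 genes most like each member were found by Pearson correlation over 20 arrays. Alternatives were array medians set to 0, quantile normalization, array weights, trended and robust variances, all 4 groups in one fit, the replicate number as a block, leaving out the 4 vehicle animals that stand apart, the mean over a gene's probe sets, the probe set that changed most, and fits leaving out 1 animal at a time. Gene positions and promoters come from RefSeq tables of GRCm38.p6. Tables and figures were made with Python 3.11.15, numpy 2.4.6, pandas 2.3.3 and matplotlib 3.10.9.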

Additional observations from a re-analysis of the deposited data

Results flagged for a closer look

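Of the genes named by the rule for named genes, the responses that differed between the genotypes by limma, given as the PXR-KO minus the WT log2 change, were those of Vcam1 by each of its probe sets (1.20, 1.83 and 0.98) and of genes around it in the pathway. The difference was above 0 for the chemokines Ccl6 (2.12) and Cxcl12 (0.52), the receptor Cxcr2 (2.27), the adhesion molecules Alcam (0.94), Cd99 (0.76), F11r (0.71) and Esam (0.53), the leukocyte molecules Itgb2 (0.93) and Cd44 (0.80), and the signalling genes Il6ra (1.35), Cebpd (1.40), Nfkbia (1.03), Irf8 (0.81) and Nfkbiz (0.67). It was below 0 for Ccl9 (-1.37), Ackr1 (-0.65), Csf1 (-1.16), Ifit1 (-2.48), Ifit3 (-1.93), Irf7 (-1.07) and Irgm1 (-0.80). A difference above 0 can be made by a rise in PXR-KO mice, as for Ccl6 (1.92), or by a fall in WT mice, as for Il6ra (-0.998). As the mean over its probe sets the Cxcl12 difference was 0.25 and did not pass (adjusted p = 0.432). Among cell type markers the difference was 4.11 for Marco, 0.92 for Cd68, 1.26 for Cd3e, 1.27 for Lyve1, 0.57 for Clec4g, 0.85 for Dcn and 0.82 for Hnf4a. A further 7 of the 193 genes of the lists also differed and are not named here. With 1 of 20 animals left out, the call was lost in 11 fits for Cxcl12 (adjusted p up to 0.0677), 12 for Cxcr2 (0.0682), 12 for Cd3e (0.0738), 9 for Cd44 (0.0618) and 8 for Ackr1 (0.0600).

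Single animals lay far from the other 4 of their group in 15 of 228 groups checked, where chance gives about 5%. In PXR-KO CMP013 livers they were replicate 2 for Ifit1 (-0.86) and replicate 4 for Hnf4a (0.55). In PXR-KO vehicle livers they were replicate 5 for Itgb2 (0.48) and replicate 2 for Nfkbiz (-0.45) and Hnf4a (-0.40). In WT CMP013 livers they were replicate 5 for Vcam1 (-0.21) and replicate 4 for Marco (0.96). In WT vehicle livers they were replicate 4 for Cxcl2 (-0.59), Cxcl13 (0.81) and Ccrl2 (-0.51), replicate 3 for Ccl3 (-0.57) and Ifit3 (-0.40), replicate 5 for Ackr1 (-0.42) and Csf1 (-0.47), and replicate 2 for Clec4g (0.17). Of these values 2 are of the 10 genes, Cxcl2 and Vcam1, and both are in WT mice.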

How the results depend on the processing

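The number of the 10 genes called in PXR-KO mice, 5 as reported, was 0 with trended and robust variances, 1 with the replicate number as a block (Vcam1) and 2 without the 4 vehicle animals that stand apart (Cxcl10 and Vcam1), and 4 to 5 with 1 animal left out. The WT count, 4 as reported, was 1 after quantile normalization (Cxcl10), 2 with the replicate block (Cxcl10 and Icam1), 2 without the 4 vehicle animals, and 2 to 4 with 1 animal left out, with 2 without WT vehicle replicate 2, 3 or 5. The count of genes whose responses differed was 1, Vcam1, in every alternative run, from 1 to 1 with 1 animal left out. Its difference was 1.02 after quantile normalization (adjusted p = 0.0117) and 1.20 with the block (adjusted p = 0.0066). The replicate numbers share no stated litter or day. Same-numbered animals did not deviate together (r from -0.20 to 0.05 in PXR-KO and from -0.24 to 0.07 in WT mice), so they do not pair the samples. Ccl2 in PXR-KO mice passed with array weights (adjusted p = 0.0405) and with all 4 groups in one fit (adjusted p = 0.0486), where Cxcl1 in WT mice did not (adjusted p = 0.0517). Vcam1 in WT mice was 0.47 by the probe set with the largest change. Over the 156 results of a gene and a comparison, of 3432 alternative values 3069 kept direction and side of the threshold, 343 lost the call, 19 gained it and 1 turned round: the difference for Csf1 was 0.0784 as the mean over its probe sets. Csf1 passed as higher in PXR-KO mice by that mean (0.67, adjusted p = 0.0147) and by its most changed probe set (1.19, adjusted p = 0.0137). Of the differences between genotypes that the report gives with their adjusted p, quantile normalization lost those of Cxcr2 (1.41), Esam (0.37), Cd99 (0.67) and Itgb2 (0.74), at adjusted p = 0.0875 to 0.453. Without the 4 vehicle animals those of Cxcr2, Esam, Nfkbiz and Irf7 did not pass (adjusted p = 0.0531 to 0.196), and with the replicate block those of Cxcr2 and Itgb2 (adjusted p = 0.0505 to 0.0800). Of the other flagged differences, quantile normalization lost Cxcl12, Ackr1, Cd44, Il6ra, Irf8, Irgm1, Cd3e, Clec4g and Hnf4a (adjusted p = 0.0563 to 0.241). The replicate block lost Cxcl12, Ackr1, Cd44, Irf8, Irgm1 and Cd3e (adjusted p = 0.0603 to 0.137). Without the 4 vehicle animals Cxcl12, Ackr1, Cd44, Irgm1 and Cd3e did not pass (adjusted p = 0.0507 to 0.198). Leaving out the 4 vehicle animals also lost changes within a genotype that the report gives for genes named by the rule. In PXR-KO mice these were Marco, F11r, Itgb2, Il1a, S100a8, Cd74, H2-Ab1, Ccl3, Ackr1, Ackr2, Psmb9 and Irf8 (adjusted p = 0.0604 to 0.186). In WT mice they were S100a8 (adjusted p = 0.0617), Nfkbiz (adjusted p = 0.0506) and Il6ra (adjusted p = 0.114). As the mean over its probe sets the Nfkbiz change in WT mice was 0.29 (adjusted p = 0.142). The cause of these changes was not tested. Ratios give no signal over background, so dim probe sets could not be told from others.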
